A study of Homo sapiens with 6 samples.

Results

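The 9 genes described here encode ligands (JAG1, JAG2 and DLL1), receptors (NOTCH1, NOTCH2 and NOTCH3) and nuclear effectors (RBPJ, HES1 and HEY1) of the Notch pathway. They were chosen by name from the textbook pathway, with earlier siNR4A1 against siControl changes from these arrays already known, so their own changes and calls are given as a description and nothing is supported with them. They are 9 of 31333 symbols on the arrays and matched 16 of 47230 probes. The arrays had been hybridised with RNA of PANC-1, a long-established cell line from a human pancreatic ductal carcinoma, transfected with a small interfering RNA (siRNA) against the orphan nuclear receptor NR4A1 (siNR4A1, 3 arrays) or with a control siRNA (siControl, 3 arrays). The sample titles spell the first group siTR4A1, while the series' design text spells it siNR4A1. Both groups are transfected cells of 1 line, and the labels give neither the siRNA sequences, a dose nor a time. Nor do they say that the 3 replicates of a group came from separate cultures; the spread behind each p-value is that between these arrays and could be purely technical.

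Notch signalling passes between touching cells. A Jagged or Delta ligand on one cell binds a Notch receptor on its neighbour, ADAM proteases and then gamma-secretase cut the receptor, and the freed intracellular domain enters the nucleus, where it binds RBPJ together with Mastermind coactivators. RBPJ without that domain recruits corepressors. HES1 and HEY1, transcriptional repressors with a basic helix-loop-helix domain, are among the best known targets. In the exocrine pancreas the pathway is known for restraining acinar differentiation and for its activity in ductal and progenitor cells.

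Promoter sequences are shown for the 3 genes with a probe past the threshold of the array-wide fit, because RBPJ is itself one of them and HES1 is a known RBPJ target. Each run is the 250 bases before a RefSeq gene start (GRCh38.p14), printed 5′ to 3′ on the gene's strand. Capitals mark the letters GTGGGAA, the core of the RBPJ motif, or their reverse complement. JAG2 is on the minus strand at chr14:105168777-105169026, HES1 on the plus strand at chr3:194135898-194136147, and the RBPJ start shown on the plus strand at chr4:26319496-26319745.
JAG2: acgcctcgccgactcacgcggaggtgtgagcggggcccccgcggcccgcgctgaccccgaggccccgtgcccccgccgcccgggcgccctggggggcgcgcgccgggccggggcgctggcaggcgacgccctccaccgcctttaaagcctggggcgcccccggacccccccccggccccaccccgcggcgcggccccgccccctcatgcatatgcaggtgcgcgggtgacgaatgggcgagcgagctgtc
HES1: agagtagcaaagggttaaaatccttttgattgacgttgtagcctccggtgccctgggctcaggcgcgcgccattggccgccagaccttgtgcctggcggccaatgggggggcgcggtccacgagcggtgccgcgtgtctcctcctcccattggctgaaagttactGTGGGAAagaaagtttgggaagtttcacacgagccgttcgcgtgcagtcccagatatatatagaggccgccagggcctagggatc
RBPJ: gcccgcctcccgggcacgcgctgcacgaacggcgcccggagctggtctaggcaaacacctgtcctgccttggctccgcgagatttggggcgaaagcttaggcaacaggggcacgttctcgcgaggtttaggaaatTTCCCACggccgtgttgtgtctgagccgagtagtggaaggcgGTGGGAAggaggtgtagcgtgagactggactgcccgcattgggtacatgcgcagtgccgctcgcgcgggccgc

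HES1 held 1 match, 85 to 79 bases before its start on the gene's strand. RBPJ has 5 starts in the table, and this one held 2 matches, at 73 to 67 bases on the gene's strand and at 115 to 109 bases on the opposite strand; the arrays do not tell which start was used. JAG2 held none. Of 7 member genes in the RefSeq promoter table, with 11 starts in all, 2 had a match at some start. Of all 35116 single promoters, 5.43% had one in a window of the same length. The units differ, since a gene with several starts, such as RBPJ, has more chances of a match than a single promoter. The monomer motif of NR4A receptors, AAAGGTCA, had no match on either strand at any of the 11 starts listed for the 7 genes and was held by 1.05% of all promoters. DLL1 and HEY1 were not among the 7 genes in the promoter table, so no sequence of theirs was searched. A match is a run of letters in a window, not a measured binding site.

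Mean deposited signal per array ran from 439 to 520 in siNR4A1 and from 332 to 623 in siControl, where replicate 3 was the brightest array and stood apart from replicates 1 and 2. Normalized log2 values correlated between 0.994 and 0.995 within siNR4A1, between 0.989 and 0.992 within siControl and between 0.976 and 0.988 across the groups (Pearson's r across probes). All 3 probes of NR4A1, the targeted gene, lay below the detection threshold on all 6 arrays. The arrays therefore gave no check of the knockdown, and exact two-sided permutation tests of the signals gave p = 0.8, 0.4 and 0.6 (the design can reach 0.1 at best). Of 8 markers of a pancreatic ductal carcinoma line, 6 were detected on all arrays (KRT8, KRT18, EPCAM, VIM, SOX9 and MUC1), KRT19 was detected on 5, and KRT7 on 0. No acinar, endocrine or endothelial marker was detected on all arrays, while 2 of 5 immune markers (CD14 and LYZ) and 1 of 6 fibroblast markers (COL1A1) were. CD14 was 0.44 ± 0.12 (SE) higher in siNR4A1 (limma, adjusted p = 0.0163), and the summed signal of the immune list ran from 1231 to 1491 in siNR4A1 and from 1074 to 1504 in siControl; its part in the results was not tested.

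A probe counted as detected on an array when its signal passed the 95% point of that array's background, and the 19066 probes detected on at least 3 of 6 arrays were tested together with limma. Changes below are siNR4A1 minus siControl on the log2 scale, after normexp background correction with an offset of 50, which understates the change of dim probes, and quantile normalization. Of the 16 member probes, 8 were detected on all arrays, 2 more entered the test with 3 detected arrays each, 2 were detected on 1 or 2 arrays, and 4 on none. The 10 tested probes stood for 8 of the 9 genes. With a Benjamini-Hochberg adjusted p under 0.05 over all tested probes, 2 member probes were called higher and 1 lower in siNR4A1, while 7.98% of all probes were called higher and 7.63% lower, or 15.6% in either direction. The 3 called were probes of JAG2, HES1 and RBPJ. Groups did not overlap for 5 of the 10, beside 33.1% of all probes. The median change of the 10 was 0.11, beside 0.01 over all probes. Nothing is read from these shares, since the contrast was known when the genes were chosen.

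**Figure D1:**
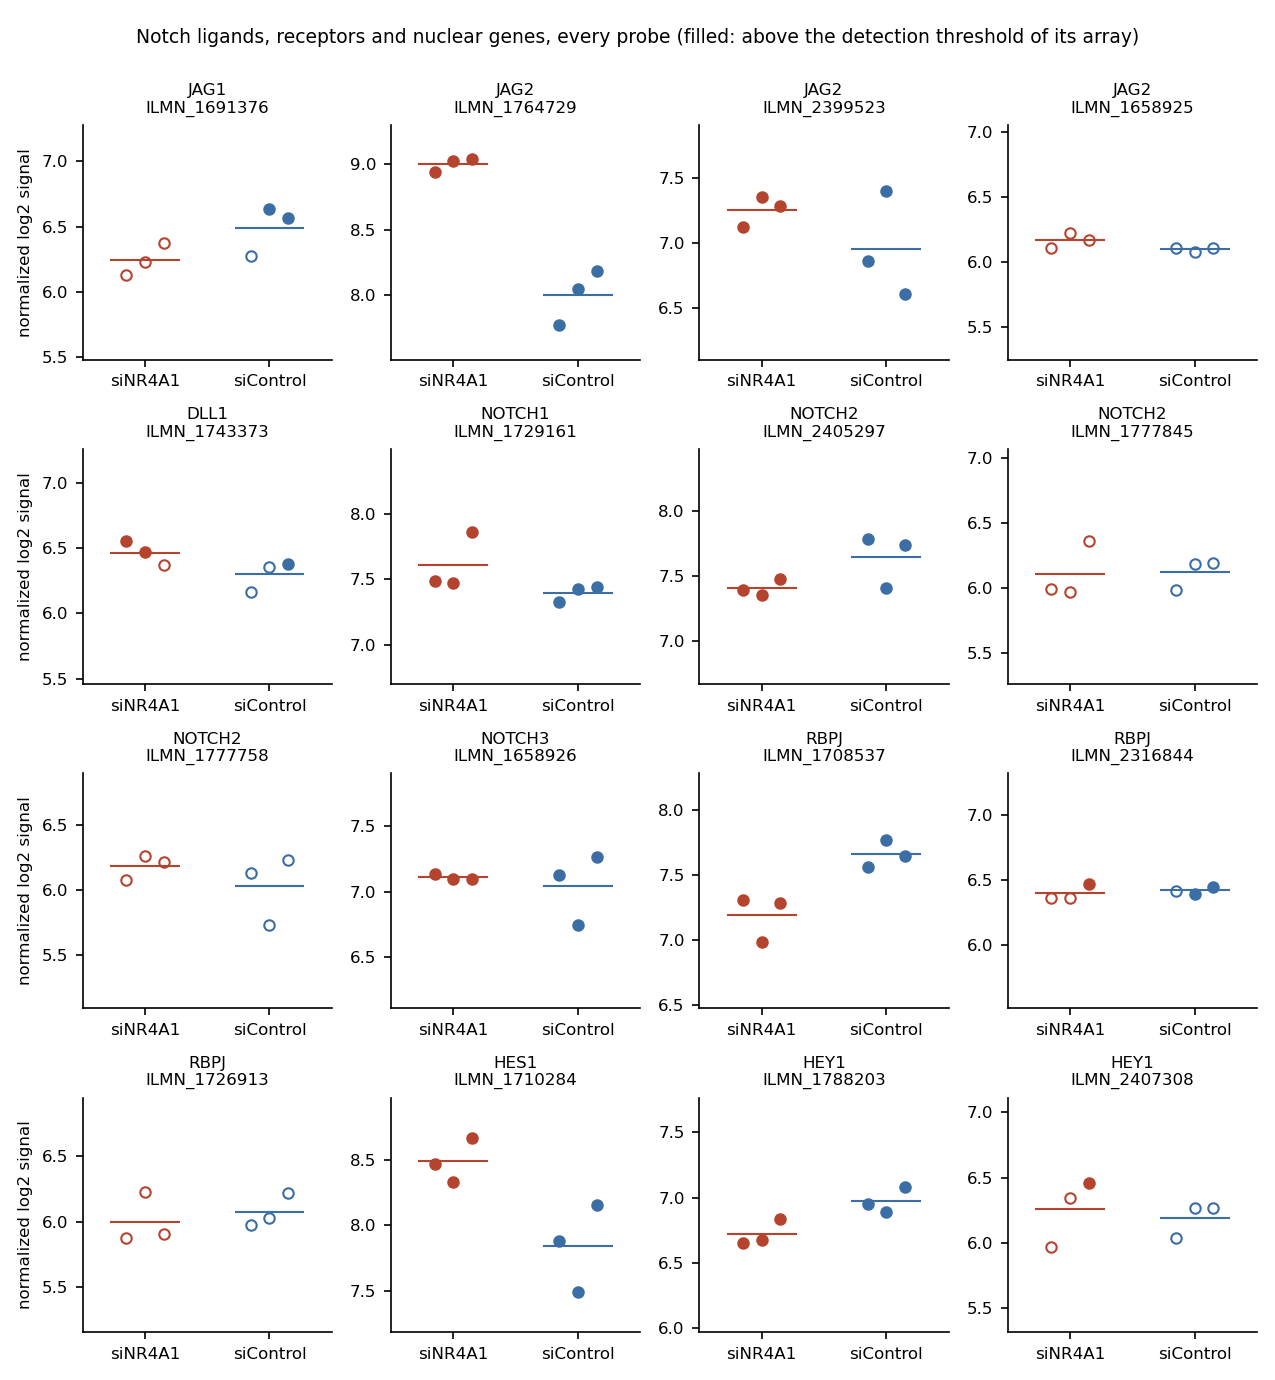
Normalized log2 signal of each of the 16 member probes on each array (y axis, same span in every panel), with siNR4A1 left and siControl right; points are replicates 1 to 3 from left to right, lines are group means, and filled points lie above the detection threshold of their array. The brightest JAG2 probe and the HES1 probe are higher and the brightest RBPJ probe lower on all siNR4A1 arrays than on any siControl array.

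Among the ligands, JAG2 had the largest difference of the tested member probes. JAG2, a Jagged ligand, had signals of 520, 629 and 632 on the siNR4A1 arrays with probe ILMN_1764729, against 192, 215 and 476 on the siControl arrays. Every siNR4A1 signal lay above every siControl signal, even that of the bright siControl replicate 3. After normalization the values were 8.94, 9.03 and 9.04 in siNR4A1, against 7.77, 8.04 and 8.18 in siControl. The change was 1.01 ± 0.12 (SE, n = 3 per group), or 2.01-fold, with a 95% interval of 0.75 to 1.26 and an adjusted p of 6.26e-05 (limma). It lay between 0.89 and 1.10 when any 1 array was left out, and at 0.65, still past the threshold, when the 2 tested JAG2 probes were averaged. In the authors' log2 values, which have neither an offset nor a background correction, the difference was 0.93. Background left in those signals can also understate a change. With a smaller normexp offset of 16 the change was 1.12.

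The second detected JAG2 probe, ILMN_2399523, moved less. Its signals were 160, 213 and 205 in siNR4A1, against 122, 152 and 158 in siControl, and did not overlap before normalization. The normalized values overlapped, with 7.13, 7.36 and 7.28 in siNR4A1 and 6.86, 7.40 and 6.61 in siControl. The change of 0.30 ± 0.16 (SE) did not pass (95% interval -0.04 to 0.64; limma, adjusted p = 0.235). It passed without siControl replicate 2, the highest control value, at 0.52 (adjusted p = 0.0105, in a range of 0.0105 to 0.646 over the alternatives), and stood at 0.12 (limma, adjusted p = 0.631) without siControl replicate 3. The remaining JAG2 probe, ILMN_1658925, was not detected on any array, with signals of 93.4, 112 and 112 in siNR4A1 and 89.4, 85.6 and 114 in siControl. The files do not say which JAG2 transcripts each probe reads.

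JAG1, the other Jagged ligand, lay at the edge of detection. Its 1 probe had signals of 94.1, 113 and 124 in siNR4A1, detected on none of the arrays, against 96.4, 108 and 154 in siControl, detected on replicates 2 and 3. The normalized values overlapped, at 6.12, 6.23 and 6.38 in siNR4A1 and 6.27, 6.63 and 6.57 in siControl. JAG1 did not enter the test, and with undetected arrays in both groups it is given no fold. DLL1, a Delta ligand, had signals of 117, 128 and 124 in siNR4A1, of which 2 were detected, against 91.7, 96.6 and 134 in siControl, of which 1 was. The lowest siNR4A1 value, 6.37, lay just under the highest siControl value, 6.38, and the change was 0.17 ± 0.11 (SE; limma, adjusted p = 0.359). It was 0.097 without siControl replicate 1 and 0.0087 with medians of detected probes equalized.

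**Figure D2:**
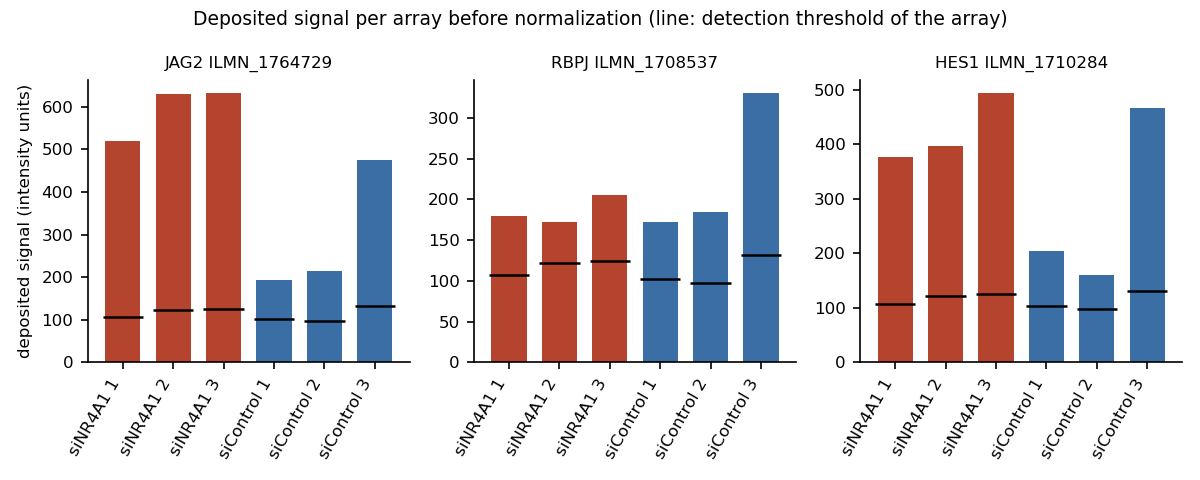
Deposited signal in intensity units, before any normalization, of the called probes of JAG2, RBPJ and HES1 on each array, siNR4A1 in red at left and siControl in blue at right; the black line is the detection threshold of the array. The JAG2 signals of the groups do not overlap, while those of HES1 and RBPJ do, with siControl replicate 3 at 467 for HES1 and 330 for RBPJ.

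No receptor passed in limma, and none had an unadjusted p under 0.05. NOTCH1 had signals of 201, 229 and 293 in siNR4A1, against 153, 154 and 286 in siControl. Its normalized values were 7.49, 7.48 and 7.87 in siNR4A1 and 7.33, 7.42 and 7.44 in siControl, without overlap but with replicates 1 and 2 of siNR4A1 just above the controls. The change was 0.21 ± 0.12 (SE), with a 95% interval of -0.05 to 0.48 (limma, adjusted p = 0.280). It was 0.082 without siNR4A1 replicate 3, the highest value.

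NOTCH2 was read by 1 detected probe, ILMN_2405297, with signals of 190, 214 and 231 in siNR4A1, against 195, 153 and 350 in siControl. Its normalized values were 7.39, 7.36 and 7.48 in siNR4A1, against 7.79, 7.41 and 7.74 in siControl. The groups overlapped through siControl replicate 2, and the change was -0.24 ± 0.12 (SE; 95% interval -0.50 to 0.02; limma, adjusted p = 0.213). The other 2 NOTCH2 probes were not detected on any array, with signals of 88.5 to 123 in siNR4A1 and 73.8 to 123 in siControl. NOTCH2 has near-identical partial copies in the genome, the NOTCH2NL genes, and cross-hybridisation with them was not tested. NOTCH3 had signals of 161, 184 and 184 in siNR4A1, against 139, 113 and 252 in siControl. Its normalized values of 7.13, 7.10 and 7.10 in siNR4A1 lay within the siControl values of 7.13, 6.75 and 7.27. Its change of 0.06 ± 0.13 (SE; 95% interval -0.21 to 0.34; limma, adjusted p = 0.800) turned to -0.087 without siControl replicate 2 and was 0.17 without siControl replicate 3.

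The nuclear genes moved in different directions. HES1, the repressor that is read out most often as a Notch target, had signals of 376, 397 and 493 in siNR4A1, against 205, 160 and 467 in siControl. The signals overlapped through the bright siControl replicate 3. Its normalized values did not overlap, at 8.47, 8.33 and 8.67 in siNR4A1 and 7.88, 7.49 and 8.15 in siControl. HES1 was 0.65 ± 0.15 (SE, n = 3 per group) higher in siNR4A1, or 1.57-fold (95% interval 0.33 to 0.97; limma, adjusted p = 0.00847). The change was 0.81 without siControl replicate 3. Without siControl replicate 2, the lowest value, it was 0.47 and still passed (limma, adjusted p = 0.0238). The call was lost without siNR4A1 replicate 3, at 0.56 (adjusted p = 0.0590, in a range of 0.00137 to 0.609 over the alternatives).

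RBPJ, the DNA-binding protein through which all Notch receptors act, was lower in siNR4A1 by its brightest probe, ILMN_1708537. The signals were 179, 172 and 205 in siNR4A1, against 172, 185 and 330 in siControl, and they overlapped. The normalized values were 7.31, 6.99 and 7.28 in siNR4A1, all below the 7.56, 7.77 and 7.65 of siControl. The change was -0.47 ± 0.12 (SE, n = 3 per group), or 1.38-fold lower (95% interval -0.72 to -0.21; limma, adjusted p = 0.0157). It missed the threshold without siNR4A1 replicate 2, the lowest value, at -0.36 (adjusted p = 0.102, in a range of 0.0110 to 0.723). A second RBPJ probe, ILMN_2316844, was detected on 3 arrays, with signals of 106, 121 and 130 in siNR4A1 against 102, 97.9 and 141 in siControl. It differed by -0.02 ± 0.11 (SE; limma, adjusted p = 0.928), or by -0.17 with medians of detected probes equalized, and another RBPJ probe was not detected. With the mean of the 2 tested probes RBPJ stood at -0.24 and did not pass. Group means of ILMN_2316844 were 6.40 in siNR4A1 and 6.42 in siControl. The lowest detected values of the arrays were 6.34 to 6.42, so this probe lay at the edge of detection. How much of a fall it could show was not tested. RBPJ has processed copies in the genome, and their part in these signals was not tested.

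HEY1, a repressor related to HES1, pointed the other way from it. Its detected probe, ILMN_1788203, had overlapping signals of 124, 143 and 159 in siNR4A1 and 128, 120 and 221 in siControl. Its normalized values were 6.65, 6.67 and 6.84 in siNR4A1, all below the 6.95, 6.89 and 7.08 of siControl. The change of -0.25 ± 0.11 (SE) did not pass after adjustment (95% interval -0.49 to -0.01; limma, unadjusted p = 0.0393, adjusted p = 0.145). The second HEY1 probe was detected on 1 siNR4A1 array only. In the fit without a detection filter the 6 probes of JAG1, JAG2, NOTCH2, RBPJ and HEY1 left out above differed by -0.25 to 0.15, and the lowest adjusted p among them was 0.300.

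**Figure D3:**
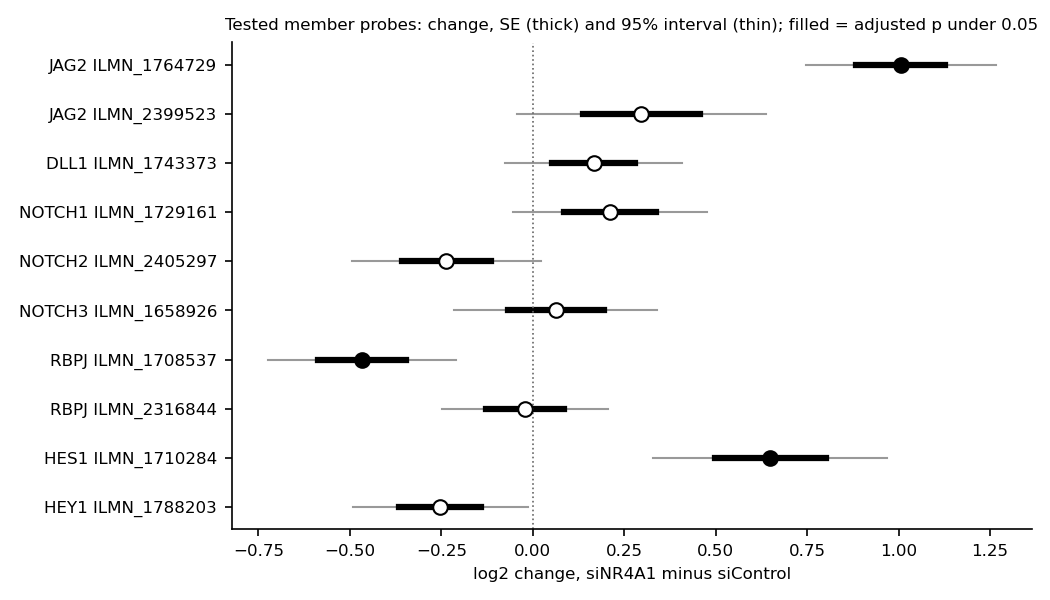
Change in log2 signal, siNR4A1 minus siControl, of the 10 tested member probes (x axis), from ligands at the top to nuclear genes at the bottom; thick lines are the SE, thin lines the 95% interval, and filled points had an adjusted p under 0.05. JAG2 stands at 1.01 and 0.30 by its 2 tested probes, HES1 at 0.65, and RBPJ at -0.47 and -0.02.

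The number of calls moved with the normalization. With array medians equalized instead, 0 of 19066 probes passed in limma, although 1489 had an unadjusted p under 0.05, and no member was called. The median change of all tested probes was then 0.11. JAG2 stood at 1.16, HES1 at 0.77 and RBPJ at -0.38, or 1.06, 0.66 and -0.48 relative to that median. With medians of detected probes equalized, JAG2 alone among the members passed, with HES1 at 0.62 (adjusted p = 0.0586) and RBPJ at -0.53 (adjusted p = 0.0587).

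The profiles over the 6 arrays were also compared with those of 14951 other named probes detected on all arrays, by the root mean square distance between mean-centred log2 values. The genes closest to JAG2 were VASN, CCND1, FLNC, SSU72 and ZMYND19, at distances of 0.04 to 0.07. Those closest to HES1 were DICER1, YTHDC1, NDUFS7, PYCARD and ASAP1, at distances of 0.07 to 0.08. The points are 6 arrays that share 2 groups, so a near profile mostly reflects a change of like size and direction.

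The rest of the pathway was read from 90 further genes listed by role, of which 72 had a detected probe; each gene was read by the brightest one. Of the 72 genes, 6 rose, 8 fell and 58 did not pass (limma, adjusted p under 0.05). That is 8.33% rising and 11.1% falling, beside 9.23% and 7.72% of all genes read the same way. The median change was 0.06, beside 0.02 over all genes. The count of 14 fell to 8 without siNR4A1 replicate 1 and to 9 without siNR4A1 replicate 3.

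None of 5 other tested ligands and receptors passed in limma, where 1 had an unadjusted p under 0.05. DLK2, a noncanonical ligand, differed by 0.31 ± 0.11 (SE; limma, adjusted p = 0.0753), and DLL3, a Delta-like protein that inhibits Notch within the cell, by 0.20 ± 0.12 (SE; adjusted p = 0.280). A second DLL3 probe stood at -0.14 and the mean of both at 0.033, and the brighter probe was at 0.12 without siNR4A1 replicate 3 and at 0.13 without siControl replicate 1. NOTCH4 differed by -0.03 ± 0.14 (SE) and was detected on 4 arrays, and DLL4, typical of endothelium, was not tested. Among 5 tested enzymes that add sugars to the receptors, 1 rose, LFNG, and none fell; at an unadjusted p under 0.05 in limma 2 were higher, the other being RFNG, also a Fringe enzyme, at 0.26 ± 0.11 (SE; adjusted p = 0.129), and none lower. LFNG, the Fringe enzyme that alters which ligands a receptor answers to, had normalized values of 8.21, 8.38 and 8.30 in siNR4A1, against 7.43, 7.26 and 7.58 in siControl. The rise was 0.87 ± 0.12 (SE, n = 3 per group; limma, adjusted p = 0.000145), and the groups were well apart. A dimmer probe of POFUT1, which adds O-fucose, differed by -0.45, and one of POGLUT1, which adds O-glucose, by 0.45, both past the threshold, while their brightest probes were at 0.13 and 0.08.

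Of 15 tested genes of ligand endocytosis and receptor turnover, 1 rose and 1 fell. EPN1, an epsin that helps internalise ubiquitinated ligands, fell by 0.83 ± 0.11 (SE; limma, adjusted p = 0.000176), with 11.45, 11.33 and 11.46 in siNR4A1 against 12.12, 12.21 and 12.39 in siControl. NEURL1B, a ubiquitin ligase for ligands, rose by 0.44 ± 0.12 (SE; adjusted p = 0.0235). That call was lost without siNR4A1 replicate 1 (0.41), siNR4A1 replicate 3 (0.40) or siControl replicate 2 (0.33). Dimmer probes of NEDD4, a ubiquitin ligase, at 0.71, and of MIB2, a ubiquitin ligase for ligands, at 0.61, were past the threshold (limma, adjusted p = 0.00173 and 0.0155), while their brightest probes, at 0.05 and 0.34, were not. NUMB, an antagonist of the receptors, stood at -0.16 and FBXW7, which marks the intracellular domain for destruction, at 0.06.

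None of 3 proteases that cut the receptors outside gamma-secretase passed, and none had an unadjusted p under 0.05, with ADAM10 at -0.21 ± 0.14 (SE; limma, adjusted p = 0.333) and FURIN at -0.15 ± 0.11 (SE; adjusted p = 0.383). ADAM10 was at -0.073 without siNR4A1 replicate 3, at -0.11 without siControl replicate 2 and at -0.075 by its second probe, and FURIN at -0.29 with medians of detected probes equalized. In gamma-secretase 1 of 6 subunits fell, APH1A, at -1.47 ± 0.14 (SE), with 8.01, 8.10 and 7.97 in siNR4A1 against 9.57, 9.77 and 9.15 in siControl. Its second probe stood at -1.33 (limma, adjusted p = 5.76e-05).

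The partners of RBPJ moved both ways. Of 9 tested coactivators and associated kinase genes, KAT2B, an acetyltransferase, rose by 0.69 ± 0.11 (SE; limma, adjusted p = 0.000711). CCNC, the cyclin partner of CDK8, which phosphorylates the Notch intracellular domain, fell by 0.58 ± 0.13 (SE; adjusted p = 0.00581), and 1 of its 3 probes, at -0.15, did not pass. EP300, the acetyltransferase bound by Mastermind, fell by 0.42 ± 0.12 (SE; adjusted p = 0.0252). The EP300 call was lost without siNR4A1 replicate 1 (-0.37), siNR4A1 replicate 3 (-0.41) or siControl replicate 1 (-0.36). MAML1, a Mastermind coactivator, stood at -0.48 ± 0.16 (SE; limma, adjusted p = 0.0547) and did not pass. Its values were 6.68, 6.70 and 6.59 in siNR4A1 against 6.89, 7.62 and 6.91 in siControl. MAML3, detected on 3 arrays, stood at -0.11.

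Of 12 tested corepressors, 2 rose and 1 fell. CTBP1 rose by 0.74 ± 0.14 (SE; limma, adjusted p = 0.00163) and CTBP2 by 0.43 ± 0.14 (SE; adjusted p = 0.0421), and NCOR1 fell by 0.53 ± 0.17 (SE; adjusted p = 0.0477). Of the tested probes, 2 of 3 for CTBP1 and 1 of 2 for CTBP2 passed. CTBP2 and NCOR1 lost their calls under 10 and 9 of 16 alternatives. For CTBP2 these included leaving out siNR4A1 replicate 1 (0.48) or 3 (0.29) or siControl replicate 1 (0.43) or 2 (0.34). For NCOR1 they included leaving out siNR4A1 replicate 1 (-0.45) or 3 (-0.51) or siControl replicate 2 (-0.28). SPEN, which bridges RBPJ to corepressors, stood at 0.33 ± 0.11 (SE; adjusted p = 0.0625).

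**Figure D4:**
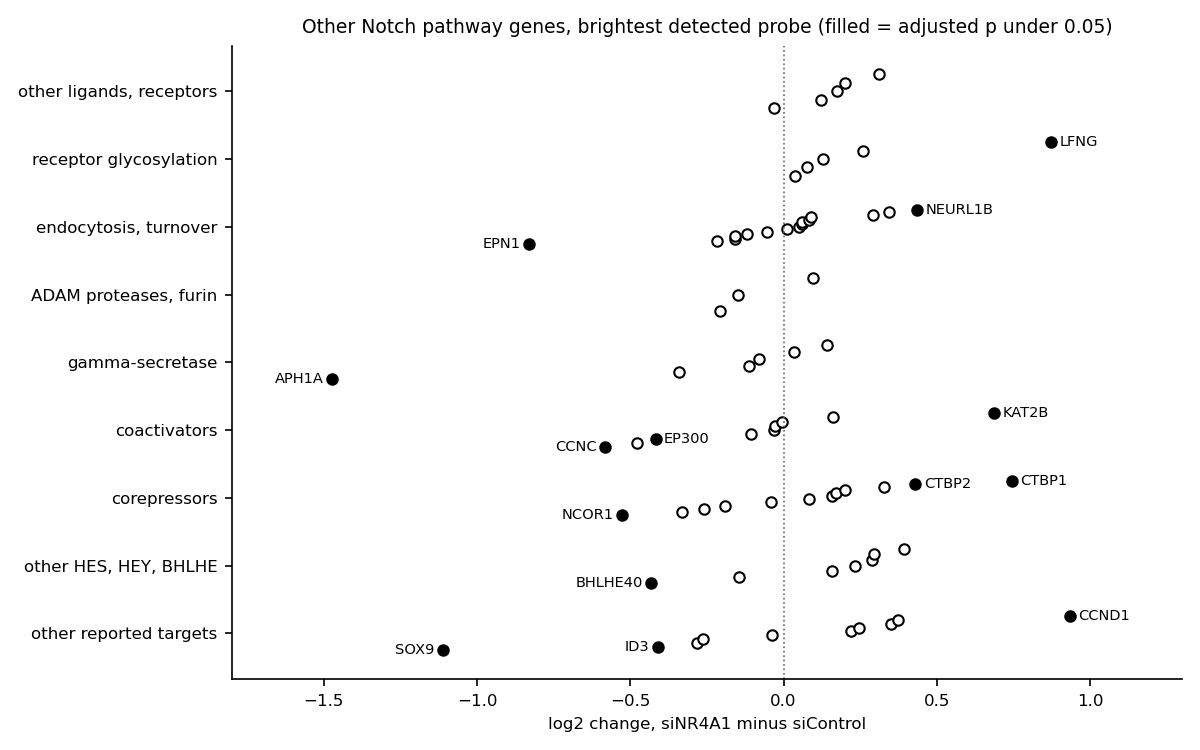
Change in log2 signal, siNR4A1 minus siControl (x axis), of 72 other Notch pathway genes by role, each a point for its brightest detected probe; filled, named points had an adjusted p under 0.05. The called genes lie on both sides of 0, from APH1A at -1.47 to CCND1 at 0.93.

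Downstream, none of 7 other tested HES, HEY and BHLHE genes rose in limma, where 2 had an unadjusted p under 0.05 in that direction. BHLHE40, a related repressor, fell by 0.43 ± 0.13 (SE; adjusted p = 0.0281). The BHLHE40 call ended when siNR4A1 replicate 1 (-0.41), 2 (-0.48) or 3 (-0.41) or siControl replicate 1 (-0.32) or 3 (-0.43) was left out. HES4, HES6, HES7 and HES2 stood at 0.29, 0.30, 0.23 and 0.16 and HEYL at -0.14, none past the threshold. HES7 was detected on only 3 arrays. BHLHE41, the close relative of BHLHE40, stood at 0.39 ± 0.14 (SE; limma, adjusted p = 0.0647), opposite in sign to it. BHLHE41 was detected on 4 arrays. NRARP, a feedback inhibitor induced by Notch in many tissues, stood at 0.22 ± 0.11 (SE; limma, adjusted p = 0.216).

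Of 10 other genes reported as Notch targets in various cells, 1 rose and 2 fell. CCND1, which encodes cyclin D1, rose by 0.93 ± 0.13 (SE; limma, adjusted p = 0.00021), with 13.14, 13.31 and 13.36 in siNR4A1 against 12.07, 12.39 and 12.54 in siControl. SOX9, a ductal and progenitor transcription factor that is also on the marker list above, fell by 1.11 ± 0.12 (SE; limma, adjusted p = 2e-05), with 9.01, 8.95 and 9.08 in siNR4A1 against 10.01, 10.33 and 10.04 in siControl. Its groups lay far apart relative to their spread. ID3, an inhibitor of helix-loop-helix factors, fell by 0.41 ± 0.11 (SE; adjusted p = 0.0173), a call lost without siNR4A1 replicate 1 (-0.39), siNR4A1 replicate 2 (-0.40) or siControl replicate 1 (-0.38). ID1, of the same family as ID3, stood on the other side of 0, at 0.35 ± 0.12 (SE; limma, adjusted p = 0.0625) and by a second probe at 0.30. BCL2, HIVEP3, CDKN1A, MYC and SNAI2 stood at 0.37, 0.25, -0.28, -0.26 and -0.04, none past the threshold. BCL2, HIVEP3 and SNAI2 were each detected on only 3 arrays, near the edge of detection.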

How the data were processed

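Expression was measured with biotin-labelled RNA of 6 PANC-1 samples on Illumina BeadChips, and the number of arrays limits the precision. BeadStudio is named, without a version, per the submitters' processing notes. The deposited intensity values are linear and were not normalized by the authors, per the file headers; the lowest is 65.8, and they come without detection p-values or control probes. The log2 table is the authors' own, as deposited, and equals quantile-normalized log2 signals within 0.005, with a median of 6.74 on each array, and served as an alternative.

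Signals were corrected with normexp (offset 50), quantile normalized and compared on all 6 arrays with limma 3.58.1 in R 4.3.3, adjusting over the 19066 tested probes. The background of an array was centred on the peak of the density of its log2 signals (bandwidth 0.03), with the spread of the values under that peak. Symbols are those in the file; 5 pathway genes were matched by an older symbol. The steps were tested on simulated data.

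The members and all lists were chosen with earlier results of these data known. All members were named, and of each other list up to 4 genes with the largest called change, or, if no gene passed, the 2 genes lowest in p, plus the 5 nearest profiles of JAG2 and HES1. Other genes and dimmer probes named (CD14, NOTCH4, DLL4, RFNG, POFUT1, POGLUT1, NEDD4, MIB2, NUMB, FBXW7, MAML1, MAML3, SPEN, the other HES genes, HEYL, BHLHE41, NRARP, ID1, BCL2, HIVEP3, CDKN1A, MYC and SNAI2) were picked after their values were seen. Alternatives covered offset, normalization, filter, weights, pairing, the choice of probe and leaving out each array.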

Additional observations from a re-analysis of the deposited data

How the results depend on the processing

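The JAG2 probe ILMN_1764729 kept its direction in all 16 alternatives and its call in 15, and HES1 and the RBPJ probe ILMN_1708537 kept theirs in 13 and 12, always with the same sign. These counts include the mean of a gene's tested probes, which is not a reading of the named probe alone. By that mean JAG2 stood at 0.65 and passed, while RBPJ, at -0.24, did not. With array medians equalized the counts called were 0 member probes, 0 other pathway genes and 0 probes in all (limma; 2, 7 and 1489 at an unadjusted p under 0.05). With medians of detected probes equalized they were 1, 7 and 1142, and NOTCH3 turned to -0.056. Leaving out each array in turn gave 2 to 4 member probes, 8 to 20 other pathway genes and 1508 to 3287 probes, against 3, 14 and 2976 with all arrays; the NOTCH3 change ranged from -0.087 to 0.17. The array-wide count was 1952, 1857 and 1508 without siNR4A1 replicates 1, 2 and 3. The causes were not tested. Of the 14 other pathway genes called, 8 kept their call whichever array was left out. With the replicate number as a block (replicate block), 3 member probes, 17 other genes and 3447 probes passed. Deviations of same-numbered arrays correlated at 0.04, 0.10 and 0.18, and those of differently numbered arrays at -0.13 to 0.04. Replicates 2 and 3 of siNR4A1 correlated best with their own number in siControl. Replicate 1 of siNR4A1 stood at 0.042 with siControl replicate 2 and at 0.038 with siControl replicate 1. The main fit did not take the numbers as pairs, and whether they mark pairs was not tested. Low signal limits DLL1, the RBPJ probe ILMN_2316844 and the 6 member probes left untested, that of JAG1 included, for which small changes could not be seen.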
